A study of Mus musculus with 4 samples.

Results

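The 9 genes described here encode factors of nonsense-mediated decay (NMD): Upf1, Upf2, Upf3a, Upf3b, Smg1, Smg5, Smg6, Smg8 and Smg9. The rule that chose them names the genes and uses no measured value. They are among the 50559 genes listed in the count table, and all 9 had enough reads to be tested among 18144 genes. RNA-seq was available for E14 cells, a line of mouse embryonic stem cells (ESCs), that received either a non-targeting siRNA (siNT) or one against Cnot1 (siCnot1), with 2 libraries per group. All 4 cultures were grown on gelatin in serum replacement medium with leukemia inhibitory factor. The study's methods describe its ESCs as carrying a tdTomato reporter transgene under the promoter of the endogenous retrovirus MERVL. CNOT1 holds together the CCR4-NOT complex, which shortens the poly(A) tails of mRNAs. Which of the study's siRNAs against Cnot1 was used for these libraries is not given in the sources used here. The study's methods describe the libraries of a group as biological replicates made independently of each other from poly(A)+ RNA, so more mRNA and a larger share of it with a tail cannot be told apart. The comparison asks how the transcripts of the NMD machinery stood when the deadenylase scaffold was depleted.

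NMD degrades mRNAs on which a ribosome terminates too early, typically upstream of an exon junction complex left by splicing. The kinase SMG1, held in check by SMG8 and SMG9, phosphorylates the helicase UPF1 when UPF2 and UPF3 proteins link UPF1 to the junction complex. Phosphorylated UPF1 then recruits SMG6, which cuts the mRNA, and other effectors that lead to its deadenylation and decapping. Several NMD factor mRNAs are themselves NMD substrates, a feedback loop that raises them when the pathway is impaired, and several of the factors are needed for mouse embryos to develop.

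Total counts ranged from 32135824 to 32557440 per library, so 3 counts corresponded to 0.0895 to 0.0963 normalised CPM (counts scaled to a library size set by TMM, the trimmed mean of M values), a floor for counting error only. Cnot1 itself was at 912 and 985 CPM in siNT and at 185 and 192 CPM in siCnot1, 19.8% of the control mean (log2 fold change -2.33 ± 0.0587 (SE), edgeR adjusted p = 2.37e-18). Embryonic stem cell markers were present, with a summed level of 7448 to 7712 CPM in siNT and 6213 to 6507 CPM in siCnot1. Of these 9 markers 7 were called lower, where 14.7% of all tested genes were, a share not matched for level. The summed level of 8 2-cell-like markers was 72.3 to 72.8 CPM in siNT and 183 to 189 CPM in siCnot1. Of these, 6 were called higher, where 15.0% of all tested genes were. Primitive endoderm, trophectoderm and fibroblast markers each summed to between 8.48 and 28.0 CPM in every library, and 1 of the 6 fibroblast markers was at 0 in all 4. Primitive endoderm markers summed to 8.48 to 10.7 CPM in siNT and 13.8 to 14.6 in siCnot1. For trophectoderm these sums were 26.2 to 28.0 and 23.4 to 27.4, and for fibroblast 8.93 to 12.2 and 12.7 to 13.3. Of the tested markers, 1 of 5 primitive endoderm, 1 of 5 trophectoderm and 1 of 3 fibroblast genes were called higher, and 1 trophectoderm gene lower. In bulk RNA, fewer cells of a type and less RNA per cell cannot be told apart, and the part of these marker shifts in the results was not tested.

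An upstream ATG in the 5′ UTR is a feature that can expose an mRNA to NMD, because its short reading frame ends early. In GENCODE M21, the annotation of GRCm38 joined here by gene name, 4 of the 9 principal transcripts held at least 1 upstream ATG: Upf2, Smg1, Smg5 and Smg9. Among the 14010 tested genes with such a transcript, 51.3% held one. The windows around the first upstream ATG of each are shown because Upf2 and Smg5 are the members that rose, with the ATG in capitals.
Upf2: acccggggctaATGttgacaacagg
Smg5: gcctcacagcgATGgcggccgagca
Smg1: ggcgcttggccATGtcgtgtcgggg
Smg9: gcggcgcATGcgccgagctag
In Upf2 this ATG lay at base 66 of a 103-base 5′ UTR and opened a frame of 13 codons that ran over the main start. In Smg5 it lay at base 44 of 164, and its frame of 31 codons closed before the main start. The frame in Smg1 had 7 codons and overlapped the main start, and that in Smg9 had 36 codons and closed before it. Members with an upstream ATG thus included the 2 that rose and also Smg1 and Smg9, which did not pass the test. Upf3b and Smg8 held none, although both of their siCnot1 libraries lay above both siNT libraries. Upf1 and Upf3a, which fell, held none either. Whether an upstream ATG bears on these changes was not tested.

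Of the 9 NMD factors, Upf2 and Smg5 rose in siCnot1, Upf1 and Upf3a fell, and the other 5 did not pass an adjusted p of 0.05. All of the differences were small, from 15.1% lower for Upf1 to 19.5% higher for Upf2. The members called were 44.4% of the 9, where 29.7% of all tested genes were called, 15.0% higher and 14.7% lower. The median log2 fold change of the 9 was 0.01, the same as that of all tested genes at 2 decimals. Their median absolute change was 0.18 against 0.26 for all. The members' median level in siNT was 69.3 CPM, against 11.3 CPM for all tested genes. Genes with more counts can be called at smaller changes, and neither the share called nor the absolute change was matched for level. None of the 9 reached the study's own rule, an unadjusted p up to 0.05 and a log2 fold change of 1 or more in size, which 7.98% of tested genes met (6.18% higher and 1.80% lower), and 6 of the 9 had an unadjusted p under 0.05. In DESeq2 the same 2 were higher and the same 2 lower. Both siCnot1 libraries lay above both siNT libraries for 4 members, where the share over all genes was 32.7%, and below both for 3, where it was 31.2%, or 63.9% for either direction.

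**Figure D1:**
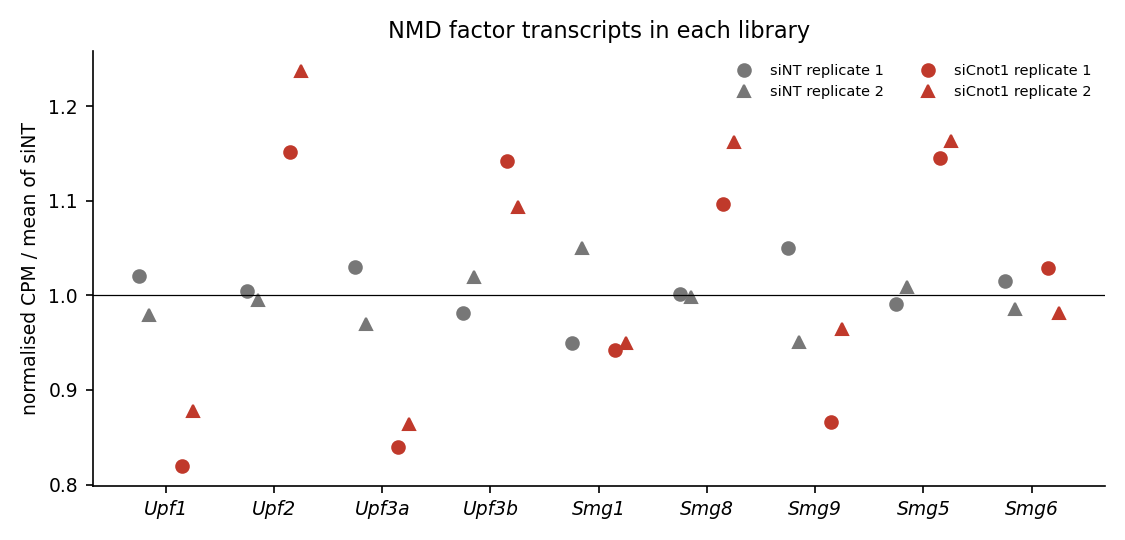
Normalised CPM of each NMD factor in each library, divided by its mean in siNT, with grey symbols for siNT and red symbols for siCnot1 (circles replicate 1, triangles replicate 2). The red symbols sit above the grey ones for Upf2, Upf3b, Smg8 and Smg5, below them for Upf1, Upf3a and, barely, Smg1, and among them for Smg9 and Smg6.

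The direction of these small differences must be read against the scaling. TMM, DESeq2's size factors and upper-quartile scaling placed the median gene at a log2 fold change of 0.01, 0.00 and 0.03, but division by library totals alone placed it at 0.12, a shift of 0.11. On that scale the share of called genes that were higher was 71.8%, against 50.5% under TMM, and the members called were Upf2, Upf3b, Smg5 and Smg8, all 4 higher. Upf1 was still lower there at an unadjusted p of 0.0409. The median of the 9 minus that of all tested genes was between -0.000385 and -0.000234 under the 4 scalings.

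**Figure D2:**
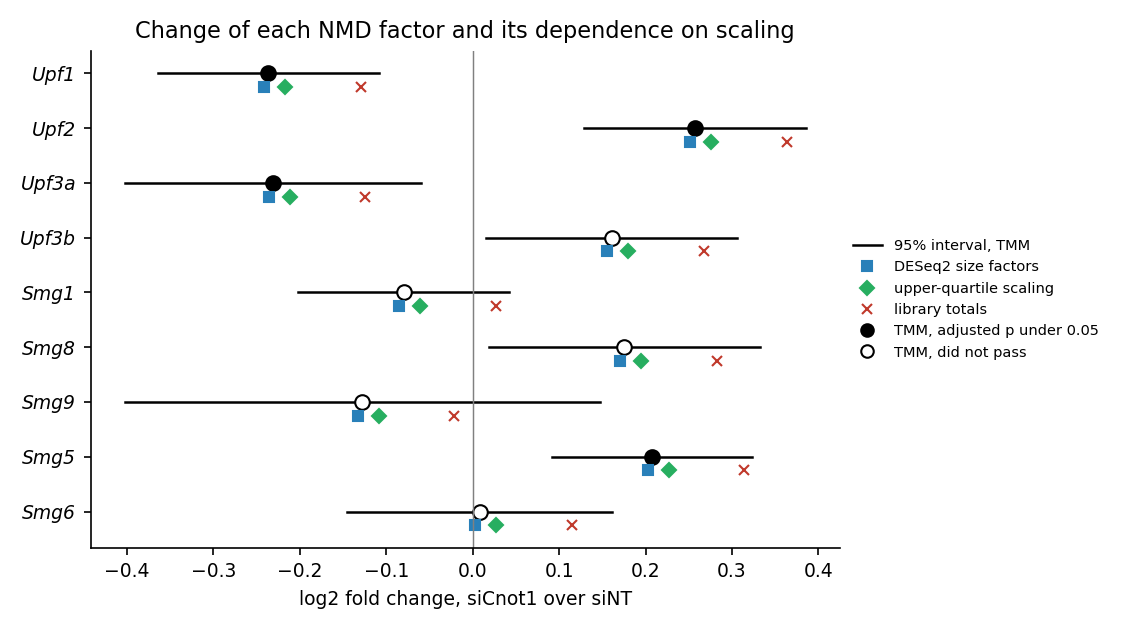
Log2 fold change of each NMD factor, siCnot1 over siNT, with its 95% interval under TMM (black lines; filled circles passed an adjusted p of 0.05) and its value under 3 other scalings (coloured symbols). Library totals moved every member to the right, which took Smg1 from -0.08 to 0.03 and left the other members on the same side of 0.

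UPF1 is the ATP-dependent RNA helicase at the centre of the pathway. Its gene (GRCm39 chr8:70784143-70806418, minus strand) gave 157 and 151 CPM in siNT and 126 and 135 CPM in siCnot1. Both knockdown libraries lay below both controls. The mean went from 154 ± 4.46 to 131 ± 6.38 CPM (SD, n = 2), a log2 fold change of -0.24 with a 95% interval from -0.36 to -0.11 (SE 0.0615, adjusted p = 0.00514 from edgeR). Without either siNT library, or without siCnot1 replicate 1, the call was lost, with a log2 fold change from -0.27 to -0.19. The call was also lost with library totals (edgeR adjusted p = 0.106) and without a filter on low counts (0.0547). The value itself lay between -0.29 and -0.13 over 12 alternatives, with adjusted p from 0.00296 to 0.139.

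UPF2 is the adaptor that binds UPF1 and UPF3 and switches on the helicase. Upf2 (chr2:5956218-6061514, plus strand) was at 119 and 118 CPM in siNT and at 137 and 147 CPM in siCnot1. The controls were close to each other and both knockdown libraries were higher. Its mean rose from 119 ± 0.833 to 142 ± 7.23 CPM (SD, n = 2), with a log2 fold change of 0.26 and an interval from 0.13 to 0.39 (SE 0.062, adjusted p = 0.0028 from edgeR). Leaving out either siNT library or siCnot1 replicate 2 gave an adjusted p between 0.0872 and 0.114, and over all alternatives the log2 fold change stayed between 0.20 and 0.36, with adjusted p from 7.29e-05 to 0.114.

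UPF3A and UPF3B are paralogs that bind the exon junction complex, and UPF3B is the one with the stronger NMD activity. Upf3a (chr8:13834636-13848723, plus strand) had 55.0 and 51.8 CPM in siNT and 44.9 and 46.1 CPM in siCnot1. It was lower in both knockdown libraries, with a mean of 53.4 ± 2.25 against 45.5 ± 0.898 CPM (SD, n = 2). The log2 fold change was -0.23 with an interval from -0.40 to -0.06 (SE 0.0827, adjusted p = 0.0377 from edgeR). This call was the least firm of the 4: it was lost without any 1 of the 4 libraries (adjusted p from 0.087 to 0.23), with upper-quartile scaling (0.0574), library totals (0.275), no filter on low counts (0.0945) and the replicate number as a block (0.064), within a range over all alternatives from 0.0298 to 0.275.

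Upf3b (chrX:36355331-36374124, minus strand) went the other way, with 68.0 and 70.7 CPM in siNT and 79.2 and 75.8 CPM in siCnot1. Both knockdown libraries were above both controls, but the difference did not pass the test. The means were 69.3 ± 1.87 and 77.5 ± 2.41 CPM (SD, n = 2), a log2 fold change of 0.16 with an interval from 0.02 to 0.31 (adjusted p = 0.0899 from edgeR). With library totals it passed, at 0.27 (adjusted p = 0.00541), within a range of adjusted p from 0.00541 to 0.432.

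SMG1 is a kinase of the PIK-related family and phosphorylates UPF1. Smg1 (chr7:117730531-117843026, minus strand) was at 251 and 278 CPM in siNT and at 249 and 251 CPM in siCnot1. The siNT libraries differed from each other by more than the groups did, and siNT replicate 1 and siCnot1 replicate 2 were both at 251 CPM. The log2 fold change of -0.08 had an interval from -0.20 to 0.04 (adjusted p = 0.34 from edgeR), which leaves room for a decrease of up to 13.1% and an increase of up to 2.98%.

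SMG8 and SMG9 form the complex with SMG1 that restrains its kinase activity. Smg8 (chr11:86968558-86977603, minus strand) had 57.6 and 57.4 CPM in siNT and 63.1 and 66.8 CPM in siCnot1, both above both controls. The log2 fold change was 0.18 with an interval from 0.02 to 0.33 and did not pass (adjusted p = 0.0848 from edgeR); it passed with library totals (adjusted p = 0.0059) and, narrowly, when genes had to reach 1 CPM in 2 libraries (0.0499), over a range from 0.0059 to 0.422. Smg9 (chr7:24096176-24122202, plus strand) was the lowest member, at 13.5 and 12.2 CPM in siNT and 11.2 and 12.4 CPM in siCnot1. The groups overlapped, and 374 to 421 counts per library left an interval of the log2 fold change from -0.40 to 0.15 (value -0.13, adjusted p = 0.517 from edgeR).

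SMG5 binds phosphorylated UPF1 and takes part in its dephosphorylation. Smg5 (chr3:88242050-88269645, plus strand) had 209 and 212 CPM in siNT and 241 and 245 CPM in siCnot1. The gap between the groups was several times the gap within either of them. Its mean rose from 211 ± 2.55 to 243 ± 2.71 CPM (SD, n = 2), with a log2 fold change of 0.21 and an interval from 0.09 to 0.32 (SE 0.0559, adjusted p = 0.00655 from edgeR). It kept that sign under all 12 alternatives, with a value from 0.19 to 0.31 and adjusted p from 1.04e-04 to 0.102, and lost the call without any 1 of the 4 libraries (adjusted p from 0.0688 to 0.102).

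SMG6 is the endonuclease that cuts NMD substrates near the stop codon. Smg6 (chr11:74816665-75055274, plus strand) had 64.4 and 62.5 CPM in siNT and 65.3 and 62.3 CPM in siCnot1, so that the knockdown libraries fell on both sides of the controls. The log2 fold change was 0.01 with an interval from -0.15 to 0.16 (adjusted p = 0.954 from edgeR), or from 9.6% lower to 11.9% higher.

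Ratios of raw counts of partner genes within a library do not depend on the scaling. With 2 libraries against 2, an exact permutation test cannot go below p = 0.333, so the ratios are given as values. Upf2 over Upf1 was 0.758 and 0.782 in siNT and 1.08 in both siCnot1 libraries, a 1.41-fold difference of the means. Upf3b over Upf3a went from 1.24 and 1.36 in siNT to 1.77 and 1.64 in siCnot1, 1.31-fold. These ratios separated the groups in each case. Each divides a member with higher CPM in siCnot1 by one with lower CPM, so they restate the same counts and are not separate support. Alone, 63.9% of all tested genes did not overlap between the groups, and the share of gene pairs whose ratio separates them was not computed. Smg5 over the endonuclease gene Smg6 went from 3.24 and 3.40 in siNT to 3.69 and 3.94 in siCnot1, 1.15-fold. Within the kinase complex, Smg8 over Smg1 went from 0.229 and 0.207 in siNT to 0.253 and 0.266 in siCnot1, whereas the groups overlapped for Smg9 over Smg1. Upf2 over Upf3b also overlapped, at 1.75 and 1.67 in siNT and 1.73 and 1.94 in siCnot1.

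To order the members by level, CPM was divided by the exon length listed for each gene in the table. Per kilobase of this length, Upf1 was highest in siNT, at 29.9 ± 0.866 CPM per kb (SD, n = 2), followed by Smg5 at 28.5 ± 0.345, Upf3a at 19.9 ± 0.84, Smg8 at 17.9 ± 0.0315, Smg1 at 16.8 ± 1.19, Upf2 at 13.7 ± 0.0958, Smg6 at 9.86 ± 0.207, Upf3b at 8.29 ± 0.224 and Smg9 at 2.45 ± 0.172. Neighbours in this order did not overlap between the 2 siNT libraries. In siCnot1, Smg5 was above Upf1 (32.9 ± 0.366 against 25.4 ± 1.24), Smg8 above Upf3a (20.2 ± 0.82 against 17.0 ± 0.335) and Upf2 above Smg1 (16.3 ± 0.832 against 15.9 ± 0.089), although in this last pair the libraries overlapped. The listed length is that of all annotated exons together, and it was 3.57 times the principal transcript for Upf3b, 2.34 times for Smg9 and 1.00 times for Smg8. With the length of the principal transcript, Smg5 came first in siNT at 47.4 ± 0.573 CPM per kb, then Upf1 at 33.4 ± 0.966 and Upf3b at 29.6 ± 0.799. Smg9 was last on either length, and the ranks of the other 8 changed with the length used.

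**Figure D3:**
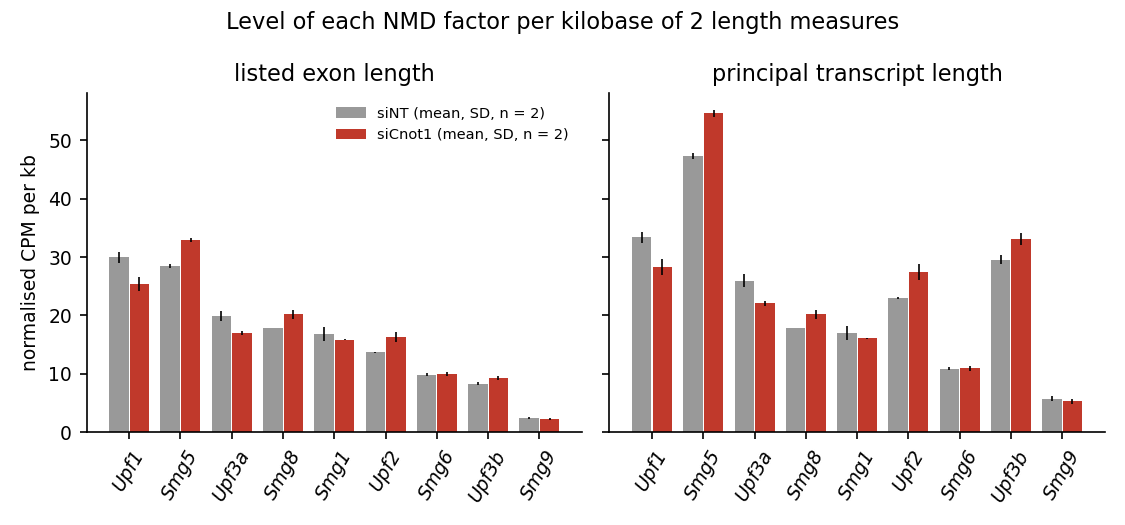
Normalised CPM per kilobase for each NMD factor in siNT (grey) and siCnot1 (red), as mean with SD over 2 libraries, with the exon length listed in the table on the left and the length of the principal GENCODE transcript on the right. Upf3b moves from 8.29 to 29.6 in siNT between the panels, while Smg8 stays at 17.9.

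Features of the mRNAs that the choice of members did not use were read from the principal GENCODE M21 transcripts, which gave a 3′ UTR to 77.2% of the tested genes, too few for a test over all genes, and to all 9 members. The members' 3′ UTRs ran from 221 bases in Smg8 to 4233 in Smg1, with a median of 958 against 967 for the genes matched. An exon junction over 50 bases past the stop codon is the classical NMD trigger. It was present in the principal transcript of 0 of the 9 and of 0.407% of the genes matched. Principal transcripts were taken only from those annotated as protein coding, and those annotated as NMD substrates were left out. These shares were thus low by construction and do not show whether the members make transcripts with the trigger. Transcripts annotated as NMD substrates were listed for Smg1, Smg5 and Smg6, where 27.1% of the genes matched had one. Searched on the sense strand of the 3′ UTR, the Pumilio element TGTANATA and the letters AGCACTT, which pair with the seed of the ESC microRNA miR-294-3p, were in 0 of 9 members and in 24.0% and 15.4% of the genes. The m6A consensus GGACT was in 4 members (Upf2, Smg1, Smg5 and Smg6) and in 59.2% of the genes. TATTTAT, the core of an AU-rich element and a known entry point for CCR4-NOT, was in 1 member, Smg8, and in 27.5% of the genes. It is shown in capitals because it is the only such match among the 9, at bases 166 to 172 of the 3′ UTR.
Smg8: cattatattgaTATTTATtgtaaaatcaa

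The nearest tested gene on each side of every member, and genes overlapping it, were also examined. Of the 20 of these that were tested 6 were called, where 29.7% of all tested genes were called. Paqr6, which starts 1731 bp past the end of Smg5 on the same strand, rose from 4 and 5 counts in siNT to 28 and 30 counts in siCnot1 (log2 fold change 2.56, adjusted p = 0.00498 from edgeR). Tmem79, 310 bp before Smg5 on the other strand, had a log2 fold change of 0.34 and did not pass (adjusted p = 0.0626). Kcnn4, 11539 bp upstream of Smg9, rose from 2 and 4 counts to 26 and 19 counts (2.76, adjusted p = 0.00897). The called neighbours that were lower were Prr11 beside Smg8 (-0.62, adjusted p = 3.09e-05), Rpl39 and Nkap on the 2 sides of Upf3b (-0.33 and -0.48, adjusted p = 7.48e-04 and 7.86e-04) and Cope beside Upf1 (-0.25, adjusted p = 0.0269). Of these 6 calls only that of Prr11 was kept in all 4 fits that left out 1 library, and those of Paqr6, Kcnn4 and Cope were lost in each of the 4 (adjusted p from 0.0698 to 0.235). Upf2, Upf3a, Smg1 and Smg6 had no called gene as nearest tested neighbour. Among tested genes, only Hic1 and Srr overlapped a member. Both are on the strand opposite to Smg6 and had 105 to 186 counts per library, against 1961 to 2190 for Smg6. How far each overlap extends was not computed. The libraries kept the strand, but whether it was used in counting is not given in the sources used here, so reads of overlapping genes may have been shared.

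In 5 lists of factors that act with or beside the 9 members, 16 of 32 genes were lower and the other 16 did not pass. A further 22 genes are NMD substrates or carry poison exons. All 7 lists were written with earlier results of these data known. Together, 3 of their 54 genes were higher and 25 lower, or 51.9% called, where 29.7% of all tested genes were called, 15.0% higher and 14.7% lower. Under library totals these numbers were 6 and 14. The lists were not matched to all tested genes for level. Of the 28 calls, 7 were kept in all 4 fits that left out 1 library, and 0 changed sign under any alternative. Of 6 other NMD cofactors 1 was lower and 5 did not pass, with a median log2 fold change of -0.12. Mov10, an RNA helicase that binds UPF1, fell from 189 ± 8.78 to 166 ± 2.27 CPM (SD, n = 2; -0.18, adjusted p = 0.021 from edgeR). The call was lost without any 1 of the 4 libraries, with library totals and without a filter on low counts. Nbas (0.12), Dhx34 (-0.16), Ice1 (0.06), Pnrc2 (-0.10) and Sec13 (-0.15) did not pass.

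**Figure D4:**
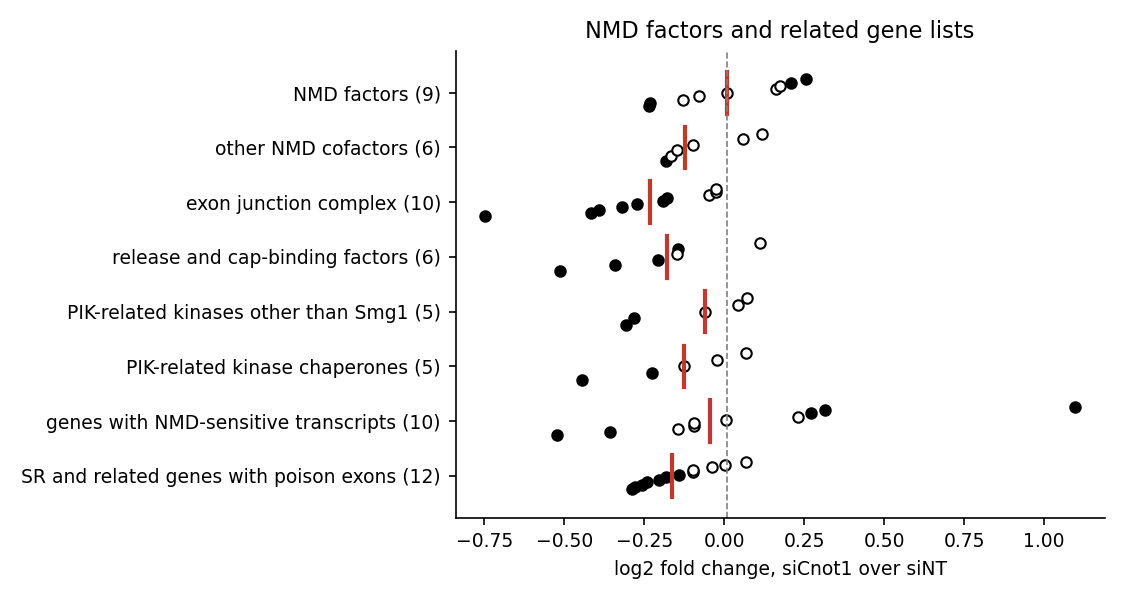
Log2 fold change, siCnot1 over siNT, of each gene in the NMD factors and 7 related lists, with the number of genes in brackets, filled circles for an adjusted p under 0.05, red bars for the list's median and a dashed line for the median of all tested genes. The NMD factors lie on both sides of 0 with a median of 0.01, and all 10 exon junction complex genes lie below 0, which holds for 7 of 10 under library totals.

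The exon junction complex marks spliced mRNAs and is the landing site of UPF3. Of its 10 genes 7 fell and 3 did not pass, with a median log2 fold change of -0.23. Rbm8a, which encodes the core protein Y14, fell from 382 and 354 CPM in siNT to 212 and 227 CPM in siCnot1 (-0.75, SE 0.0592, adjusted p = 3.07e-09 from edgeR). Rnps1, a peripheral component, had 187 and 162 CPM in siNT and 128 and 138 CPM in siCnot1 (-0.39, adjusted p = 1.17e-04), and lost the call without siNT replicate 1 (adjusted p = 0.0738). The partner of Y14, Magoh, was also lower (-0.42, adjusted p = 1.18e-04), as were Eif4a3, Pym1, Acin1 and Sap18. Magohb, Casc3 and Pnn were at -0.03, -0.05 and -0.02 and did not pass. Under library totals, and without a filter on low counts, 4 of the 10 were called lower. In the 4 fits that left out 1 library, 3 to 5 were called lower, Rbm8a and Magoh in each.

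Release and cap-binding factors, which act at termination and in the first rounds of translation, had 4 of 6 genes lower and a median of -0.18 on the log2 scale. Ncbp1, the large cap-binding subunit, went from 151 ± 7.59 to 119 ± 1.18 CPM (-0.34, adjusted p = 1.75e-04) and Ctif, a translation factor of cap-binding complexes, from 25.4 ± 0.18 to 17.8 ± 0.0294 CPM (-0.51, adjusted p = 6.28e-04), each SD with n = 2. Gspt1 and Etf1, the genes of the release factors, were lower as well (-0.21 and -0.15), and Gspt2 (0.11) and Ncbp2 (-0.15) did not pass. Under library totals 2 of the 6 were called lower. In the 4 fits that left out 1 library 1 to 2 were called lower, Ncbp1 in each.

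SMG1 belongs to a family of large kinases that depend on a shared chaperone. Of the 5 other PIK-related kinase genes, Atm, the DNA damage kinase gene, fell by 0.31 on the log2 scale (adjusted p = 8.16e-04) and Mtor, the growth kinase gene, by 0.28 (adjusted p = 0.00227). Atr (-0.06), Prkdc (0.07) and Trrap (0.04) did not pass. Atm lost the call without siNT replicate 2 (log2 fold change -0.23). Mtor lost it without either siNT library or siCnot1 replicate 1 (log2 fold change from -0.33 to -0.21). Without a filter on low counts Mtor lost it too (edgeR adjusted p = 0.0662). Among 5 genes of the chaperone machinery, the ATPase genes Ruvbl1 (-0.44, adjusted p = 4.50e-06) and Ruvbl2 (-0.23, adjusted p = 0.0078) were lower, and Telo2 (-0.02), Tti1 (0.07) and Tti2 (-0.13) did not pass. Ruvbl2 lost the call with library totals (edgeR adjusted p = 0.137) and without a filter on low counts (0.107). It also lost it without either siNT library or siCnot1 replicate 1, with a log2 fold change from -0.27 to -0.15.

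Among 10 genes known to make NMD-sensitive transcripts, 3 rose, 2 fell and 5 did not pass, with a median log2 fold change of -0.04. The stress transcription factor gene Atf4 rose from 53.0 ± 1.12 to 66.0 ± 2.94 CPM (SD, n = 2; 0.31, adjusted p = 0.00313 from edgeR). Cdkn1a, the cell cycle inhibitor gene, rose from 67.3 ± 6.69 to 81.2 ± 2.65 CPM (0.27, adjusted p = 0.00857), and Atf3 from 34 and 40 counts to 93 and 77 counts (1.10, adjusted p = 0.0122). The growth arrest genes Gadd45a and Gadd45b, often used as readouts of NMD, were lower (-0.52 and -0.36, adjusted p = 2.21e-04 and 0.00503). The snoRNA host genes Gas5, Snhg1 and Snhg12, whose spliced RNAs are classical NMD substrates, were at -0.09, -0.14 and -0.09 and did not pass. Ddit3 (0.23) and Tbl2 (0.01) did not pass either. Total counts per gene do not separate an NMD-sensitive isoform from the others, and the calls of Atf4 and Cdkn1a were each lost without siNT replicate 2 or siCnot1 replicate 2, among others (adjusted p from 0.0725 to 0.187). Atf3 lost its call without any 1 of the 4 libraries (adjusted p from 0.0514 to 0.134) and when low counts were not filtered (0.0531). Gadd45b lost it without replicate 1 of either group (0.158 and 0.144) and without a filter (0.0714), and Gadd45a kept it in each of the 12 alternative fits.

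SR and related splicing factor genes carry poison exons, whose inclusion sends the mRNA to NMD. Of 12 such genes 7 fell and 5 did not pass, with a median of -0.16. Hnrnpl had the smallest adjusted p (758 ± 21.1 to 621 ± 18.0 CPM, SD, n = 2; -0.29, adjusted p = 2.29e-04 from edgeR), then Srsf10 (316 ± 14.2 to 260 ± 1.63 CPM; -0.28, adjusted p = 5.45e-04), and Srsf1, Srsf2, Srsf3, Srsf7 and Tra2b were lower too. Srsf10 lost the call without siNT replicate 2 (adjusted p = 0.0537). Under library totals 1 of the 12 was called higher and 3 lower. In the 4 fits that left out 1 library, 10 or 11 of the 12 had a log2 fold change below 0 and 2 to 5 were called lower, Hnrnpl and Srsf7 in each.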

How the data were processed

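RNA-seq libraries of poly(A)+ RNA from siNT and siCnot1 ESCs (2 per group) were analysed. The authors deposited raw counts per gene, without normalisation or pooling. The submitters' processing notes name fastp 0.19.4, HISAT2 2.2.1, DESeq2 1.40.2 and mm10, and the counting program is not given in the sources used here. The deposited positions are not those of mm10: 3.65% of 48775 gene starts lay within 1000 bp of the GRCm38.p6 RefSeq start, and 0 of the 9 members did. Scaffold names of GRCm39 occur, so positions are given as GRCm39, and no GRCm38 position was set against them.

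Counts were filtered with filterByExpr (minimum count 10), scaled by TMM and tested with edgeR 4.0.16 (quasi-likelihood, condition only, limma 3.58.1, R 4.3.3), with Benjamini-Hochberg adjustment over 18144 genes. The SE was the log2 fold change divided by the root of the F statistic. CPM values are the counts over TMM-scaled library sizes. The fits were first tested on simulated counts with 1 common dispersion, with the changed genes drawn at random from all tested genes. There edgeR recovered 4 of 50 genes changed 1.25-fold, 27 of 50 changed 1.5-fold, 41 of 50 changed 2-fold and 46 of 50 changed 3-fold. The members' own folds ran from 0.849 (Upf1) to 1.19 (Upf2), so a member that did not pass may still have changed. Replicate libraries differed beyond sampling noise (chi-square per degree of freedom 6.71 in siNT and 5.61 in siCnot1) and correlated at 0.983 and 0.986 across genes, against 0.970 to 0.971 between groups. Total counts were 32135824 to 32557440 per library.

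The genes named are all 9 members, Cnot1, the other NMD cofactors, the PIK-related kinases, the 2 genes with the smallest adjusted p per direction in each other list with any further members needed to account for a list, and the nearest tested or overlapping genes of each member. The rule for the members uses names only, but it and the lists were written with earlier results of these data known, and 1 gene of the cofactor list is not reported here. Alternatives were DESeq2's size factors, upper quartiles or library totals, 2 other filters, DESeq2 1.42.0 and limma-voom, a replicate block, leaving out each library, the study's rule and, chosen after seeing the data, the principal transcript's length.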

Additional observations from a re-analysis of the deposited data

How the results depend on the processing

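Of 108 values of the 9 members under 12 alternatives, 82 kept their direction and their side of the threshold, 20 lost and 3 gained the call, and 3 changed sign. DESeq2, limma-voom and DESeq2's size factors kept all 9. The members called numbered 2 higher and 2 lower. Higher members numbered 4 with library totals, 0 with the study's rule and 0 to 1 without 1 library. Lower members numbered 1 with upper-quartile scaling, 1 with the replicate number as a block, 0 with library totals, without a filter or with the study's rule, and 0 to 1 without 1 library. Counts of 0 are by edgeR, and 6 of the 9 had an unadjusted p under 0.05 in the reported fit. Without 1 library its group has a lone sample, which is assumed to vary like the other group, so fewer calls come in part from fewer samples.

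Over all genes, 2719 were higher and 2668 lower. These numbers were 1303 and 1450 without a filter, 1121 and 326 with the study's rule, 743 to 1444 and 871 to 1469 without 1 library, and 3989 and 1567 with library totals. In the 7 related lists, 3 genes were higher and 25 lower. Library totals gave 6 and 14, no filter 1 and 15, the study's rule 1 and 0, and leaving out 1 library 0 to 1 and 10 to 18. The cause of these differences was not tested.

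No called gene of the 7 lists changed sign under the alternatives, but 16 of the 54 genes, all uncalled, did so in at least 1, of them 11 with library totals (3 in the exon junction complex list and 3 in the poison exon list). Among the members and the cofactor and kinase lists, those with library totals were Smg1 (0.0268), Pnrc2 (0.00847) and Atr (0.0479). Without 1 library, the values ran from -0.0302 to 0.036 for Smg6 (below 0 without siNT replicate 2 or siCnot1 replicate 1), from -0.0499 to 0.197 for Prkdc (below 0 without replicate 1 of either group) and from -0.00145 to 0.0789 for Trrap (below 0 without siCnot1 replicate 2). With the principal transcript's length, the rank per length in siNT was 1 for Smg5, 2 for Upf1, 3 for Upf3b, 4 for Upf3a, 5 for Upf2, 6 for Smg8, 7 for Smg1 and 8 for Smg6.

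The groups share replicate numbers 1 and 2. Libraries with the same number deviated from their group means with a correlation of 0.0169 over 18144 genes, unweighted by count. With 2 libraries per group this cannot decide whether libraries with the same number were prepared together. The replicate block gave 2524 higher and 2431 lower genes, and among the members it changed only the call of Upf3a. Of the members, Smg9 had the fewest counts, 374 to 421 per library, and the widest interval.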
